A study of Mus musculus with 2 samples.

Results

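Noncoding RNA promoters that lie away from protein-coding promoters were examined among the open chromatin regions of mouse haematopoietic stem cells. A region belonged to the set when its summit lay within 1000 bp of a transcript start of a noncoding gene in GENCODE M21 and more than 1000 bp from every protein-coding transcript start. The 7 gene types counted as noncoding were lincRNA, antisense, processed_transcript, bidirectional_promoter_lncRNA, sense_intronic, sense_overlapping and macro_lncRNA. Of 31532 regions in the main list, 812 met the rule. A further 11226 regions had their summit within 1000 bp of a protein-coding start and are called coding promoter regions, and the remaining 19494 are called other regions.

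The cells were haematopoietic stem cells from adult C57BL/6J mice of 5 to 6 weeks, assayed by ATAC-seq, where a transposase inserts adapters into open DNA. The series has 1 group of 2 libraries, biological replicates 1 and 2, with no treatment or altered allele named. Both libraries carry the same donor identifier, sex was not collected, the sorting markers are not named, and a starting quantity is given for replicate 2 alone, as 50000 cells. The depth of the libraries is unknown, since peak lists hold no read totals, and with 2 libraries of 1 group no test over samples was made. The label of the cells was set against marker genes. A region lay at the promoter of 9 of 14 stem and progenitor markers and 2 of 6 erythroid markers. The counts were 1 of 7 for granulocyte and monocyte markers and 2 of 4 for B cell markers. They were 0 of 5 for T cell, 0 of 2 for hepatocyte and 0 of 2 for neural markers. Over all protein-coding genes the share with a region was 51.5%, so the stem and progenitor count lay near that background.

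Long noncoding RNAs are transcribed from promoters of their own or from the promoter of a neighbouring coding gene, and many are made at low levels and in few cell types. Some act in the nucleus on chromatin or nuclear bodies, and others serve mainly as precursors, carrying small nucleolar RNAs (snoRNAs) or microRNAs (miRNAs) in their introns or exons. In blood, miRNAs cut from such host transcripts, including miR-223 and the miR-17 cluster, take part in the control of myeloid and lymphoid differentiation.

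The sequences of 3 near-identical lincRNA promoters are shown first because they are among the 4 regions of highest signal, followed by the summit of highest signal in each other gene type. Each runs from 50 bases before to 50 bases after the summit (mm10), read 5′ to 3′ on the strand of the noncoding gene. In the first 3, which come from lincRNA promoters on chromosome 17, the capitals mark the longest stretch that all 3 share within the printed bases, 30 bases. It ends at the last base printed for Gm5165, so the shared stretch may run further. In the next 5 the capitals mark CpG dinucleotides.
BC002059, chr17:16951422-16951522, plus strand: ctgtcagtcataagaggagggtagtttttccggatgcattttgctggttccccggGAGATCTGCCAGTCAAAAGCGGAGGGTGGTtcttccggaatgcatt
Gm6712, chr17:17294297-17294397, plus strand: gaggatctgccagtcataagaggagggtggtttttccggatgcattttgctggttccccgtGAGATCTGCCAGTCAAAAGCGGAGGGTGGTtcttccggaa
Gm5165, chr17:17234723-17234823, plus strand: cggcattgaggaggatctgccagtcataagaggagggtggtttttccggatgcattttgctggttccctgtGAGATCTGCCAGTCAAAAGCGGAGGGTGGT
Gm13274 (antisense), chr4:88757654-88757754, minus strand: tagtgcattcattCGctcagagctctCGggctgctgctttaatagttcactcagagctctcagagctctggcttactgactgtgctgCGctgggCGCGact
5730405O15Rik (processed_transcript), chrX:13041859-13041959, plus strand: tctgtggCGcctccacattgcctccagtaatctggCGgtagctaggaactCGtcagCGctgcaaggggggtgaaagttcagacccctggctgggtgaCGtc
Gm15708 (sense_intronic), chr5:144277361-144277461, plus strand: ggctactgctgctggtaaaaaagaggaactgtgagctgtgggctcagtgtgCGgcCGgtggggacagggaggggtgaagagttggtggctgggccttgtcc
AC117700.1 (sense_overlapping), chr15:88891157-88891257, minus strand: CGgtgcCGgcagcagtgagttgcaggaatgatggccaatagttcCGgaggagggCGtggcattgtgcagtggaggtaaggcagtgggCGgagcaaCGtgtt
2410022M11Rik (bidirectional_promoter_lncRNA), chr14:56812838-56812938, plus strand: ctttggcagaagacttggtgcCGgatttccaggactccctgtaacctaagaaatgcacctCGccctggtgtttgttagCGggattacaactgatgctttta

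The 812 regions lay on 20 chromosomes and belonged to 770 nearest noncoding genes, 40 of which had 2 or more of the regions. By the type of the nearest gene, 471 were lincRNA, 195 antisense, 126 processed_transcript, 16 sense_intronic, 3 sense_overlapping and 1 bidirectional_promoter_lncRNA, with 0 at a macro_lncRNA. Noncoding starts on both strands lay within 1000 bp of the summit in 29 regions. The summits fell outside annotated coding genes in 605 regions, in an intron of a coding gene in 160 and in an exon of one in 47.

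Most accessible noncoding genes shared their promoter with a coding gene and so fell outside the set. Of 10152 noncoding genes, 1872 (18.4%) had a region within 1000 bp of a start, and 799 (7.87%) had one that met the rule. The other 1073 had a region only at a coding promoter. Among the 8317 genes with no coding start nearby, 758 (9.11%) had a region. By contrast, 1114 of the 1835 genes near a coding start (60.7%) had one, and among protein-coding genes 11258 of 21853 (51.5%) did. Of the types, processed_transcript genes had the highest share with a region among the genes away from coding starts, 110 of 478 (23.0%), against 456 of 5481 lincRNA genes (8.32%) and 173 of 2013 antisense genes (8.59%). Bidirectional promoter genes, which are defined by their coding neighbour, had a region in 141 of 190 cases, but only 2410022M11Rik entered the set.

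Noncoding promoter regions resembled other regions in signal, and lay between coding promoter regions and other regions in width and CpG content. The signal is the authors' own value for each peak, with no stated scaling, and it is used here to describe and rank regions within a list. Its median was 7.96 (quartiles 6.40 and 10.1) in noncoding promoter regions, 9.37 in coding promoter regions, 7.96 in other regions and 8.33 over all regions. Median width was 599.5 bp in noncoding promoter regions, 836 bp in coding promoter regions and 505 bp in other regions. Over all regions it was 598 bp, so the width of the set was near that background. A window reaching 100 bp to either side of the summit was called CpG-rich when its GC content was at least 50% and its ratio of observed to expected CpG at least 0.6. In noncoding promoter regions 26.6% of windows were CpG-rich (216 of 812, 95% Wilson interval 23.7 to 29.7%). The share was 74.2% (73.43 to 75.05%) in coding promoter regions and 6.88% (6.54 to 7.25%) in other regions, and the 3 intervals did not overlap. Over all regions it was 31.4% (30.9 to 31.9%), so the noncoding share lay below the background of the list. Wilson intervals cover counting error only.

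**Figure D1:**
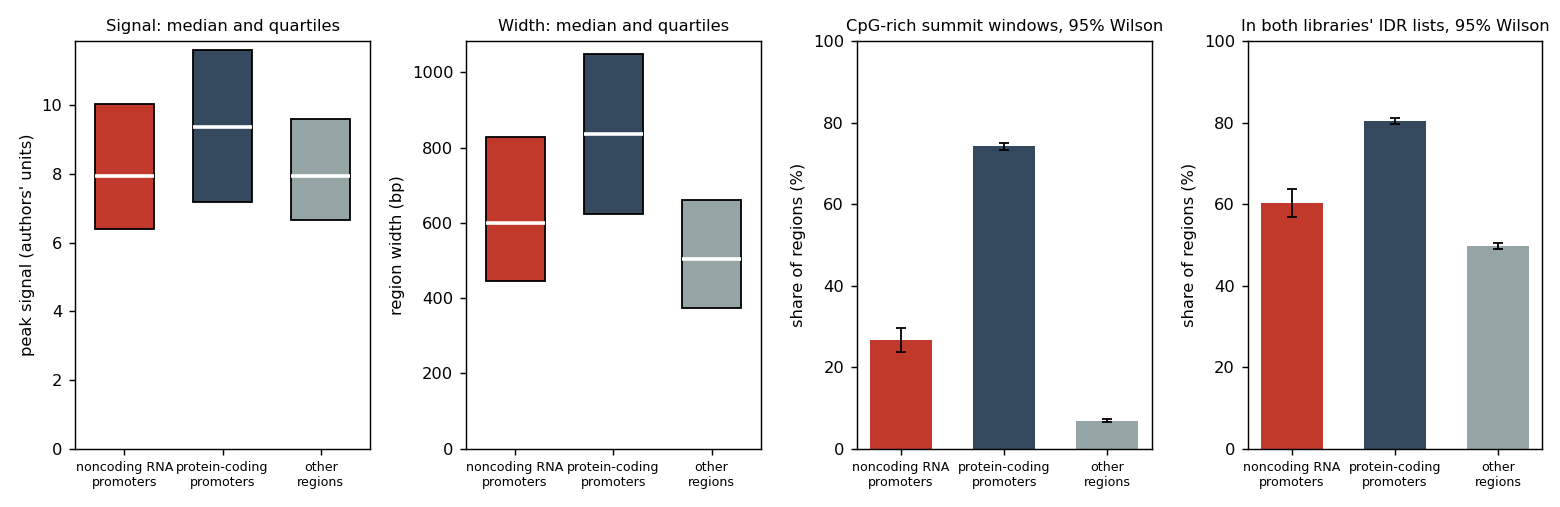
Peak signal and region width (boxes from the lower to the upper quartile, white line at the median) and the shares of CpG-rich windows and of regions found in both libraries' IDR thresholded lists (bars with 95% Wilson intervals), for noncoding RNA promoters (812 regions), protein-coding promoters (11226) and other regions (19494). Noncoding promoters stand between the other classes in width, CpG-rich windows (26.6%) and regions found in both libraries (60.3%).

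The share of noncoding promoter regions found in both libraries lay between those of the other classes. Each library has its own list thresholded by the irreproducible discovery rate (IDR), with 34588 regions for replicate 1 and 22434 for replicate 2. Replicate 1's list overlapped 691 of the 812 regions (85.1%, 82.5 to 87.4%), against a background of 84.6% over all regions. In replicate 2's list 529 were found (65.1%, 61.8 to 68.3%), against 65.3% over all regions. Both lists held 490 (60.3%, 56.9 to 63.7%), against 61.0% over all regions, 80.4% in coding promoter regions and 49.8% in other regions. The share for noncoding promoters was thus near the background of all regions. Replicate 1's list alone held 24.8% of the 812, replicate 2's alone 39 regions (4.80%), and 82 (10.1%) were in neither.

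With the longer pseudoreplicated list of each library added, which holds weaker peaks, 811 regions were found in replicate 1 and 799 in replicate 2. The region missing from replicate 1 lay at Gm47204, with a signal of 4.203 in the main list and 3.63 in replicate 2. The 5 of highest main-list signal among the 13 missing from replicate 2 lay at Gm26520, Gm35326, Gm3364, Gm26911 and Gm47711, with 7.99, 7.85, 7.55, 6.94 and 6.57. All 5 were in a list of replicate 1, at 8.38, 10.53, 9.06, 8.04 and 6.91. Over the regions found, the median signal was 8.84 in replicate 1's lists and 6.17 in replicate 2's, and over all regions it was 9.23 and 6.35, so values of the libraries are given side by side and not compared as levels.

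**Figure D2:**
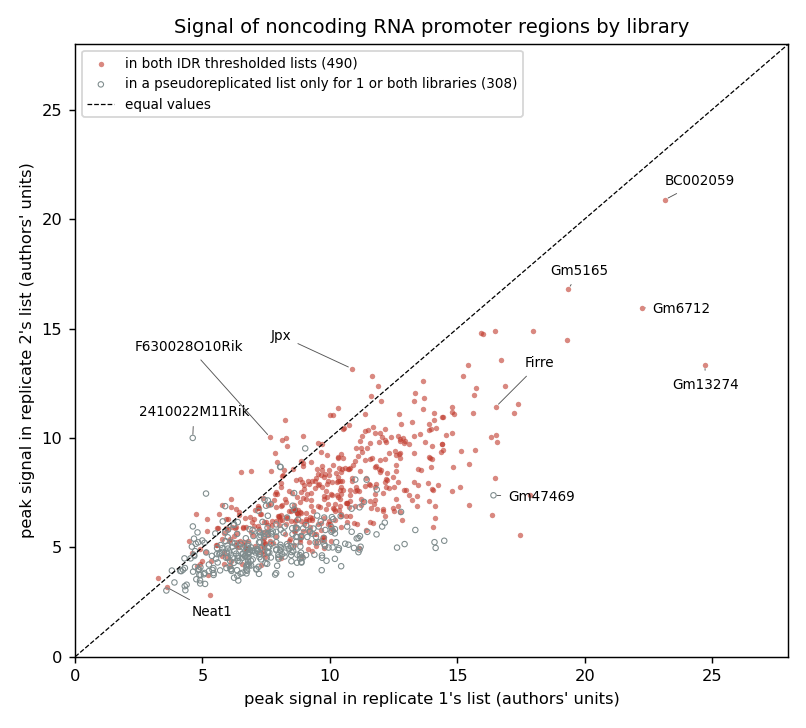
Each point is 1 of the 798 noncoding promoter regions found in a list of both libraries, with its peak signal in replicate 1 (x) and replicate 2 (y), both in the authors' units on linear axes; filled points are in both IDR thresholded lists (490). BC002059, Gm6712, Gm5165 and Gm13274 stand at the upper end.

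Within the set, CpG content went with signal, width and the share found in both libraries. The 216 CpG-rich noncoding promoter regions had a median signal of 8.93 and a median width of 729 bp, and the 596 others had 7.76 and 558 bp. Among the CpG-rich ones 72.7% were found in both libraries, and among the others 55.9%. For the other classes, CpG-rich coding promoter regions were found in both libraries in 84.7% of cases and CpG-rich other regions in 61.2%. Without CpG richness the shares were 68.1% in coding promoter regions and 48.9% in other regions. Median signal among CpG-rich regions was 8.93 at noncoding promoters, 9.76 at coding promoters and 7.82 in other regions. Without CpG richness it was 7.76, 8.08 and 7.96 in the same order. The link with signal thus held at both kinds of promoter and not in other regions. Gene types differed in CpG content: 41.3% of the processed_transcript windows were CpG-rich, against 25.1% of lincRNA and 21.5% of antisense windows.

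Summits gathered just upstream of the annotated noncoding start. The median position was 46.5 bp upstream, with 534 summits upstream and 278 downstream of the start. Within 100 bp of the start lay 318 summits (39.2%), another 296 lay between 100 and 500 bp, and 198 (24.4%) between 500 and 1000 bp. The nearer the summit, the more often its window was CpG-rich: 36.5% within 100 bp, 25% (74 of 296) up to 500 bp and 13.1% beyond 500 bp. Median signal was 8.47, 8.01 and 7.35 in the same order of distance, and median width 646, 616 and 518.5 bp. The share found in both libraries was 66.7% within 100 bp, 57.8% up to 500 bp and 54.0% beyond 500 bp, with intervals of 61.3 to 71.6% within 100 bp and 47.1 to 60.8% beyond 500 bp.

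**Figure D3:**
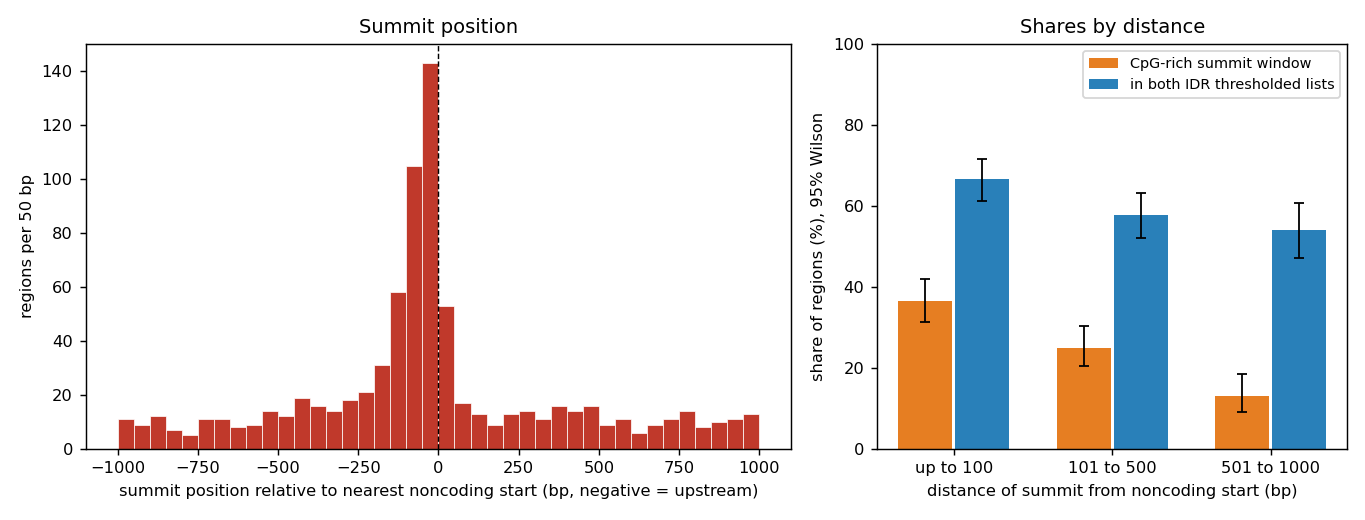
Left, number of summits per 50 bp by position relative to the nearest noncoding start (negative values are upstream); right, share of regions with a CpG-rich summit window and share found in both IDR thresholded lists by distance of the summit, with 95% Wilson intervals. Summits peak just upstream of the start, and the CpG-rich share is 36.5% within 100 bp and 13.1% beyond 500 bp.

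Distance to coding genes also went with signal. The nearest coding start lay 1 to 5 kb away for 124 regions, 5 to 50 kb for 439 and over 50 kb for 249. Median signal in these bands was 6.46, 8.07 and 8.55, while the CpG-rich share was 33.9%, 28.9% and 18.9%. Regions next to a coding gene were thus the more often CpG-rich and the weaker in signal. The share found in both libraries was 55.6%, 62.0% and 59.8%.

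The limits of the rule divided regions of like signal. Just inside 1000 bp of a noncoding start were 1700096J18Rik (7.34), Wincr1 (7.46) and Gm11537 (10.1), at 1000, 999 and 996 bp. Just outside were Mxra8os (5.79), Gm47795 (7.85) and AY512915 (11.4), at 1005, 1010 and 1012 bp. On the other limit, Gm15663 (8.54), Gm16208 (7.49) and Gm19261 (5.95) lay just over 1000 bp from a coding start and were kept, whereas Gm44851 (5.49), Gm10516 (8.36) and Gm15736 (7.20) lay just under it and were not.

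Of the 4 regions of highest signal, 3 were at lincRNAs in 1 stretch of chromosome 17. BC002059 (chr17:16951048-16951677) had a signal of 24.1 in the main list, 23.2 in replicate 1 and 20.9 in replicate 2, and ranked 12 among all 31532 regions. Gm6712 (chr17:17293866-17294548) had 22.5 in the main list, 22.2 in replicate 1 and 15.9 in replicate 2. Gm5165 (chr17:17234312-17235021) had 19.7 in the main list, 19.4 in replicate 1 and 16.8 in replicate 2. These are the 3 chromosome 17 sequences printed above, and their windows are near copies of each other: over the full window, Gm6712 was 96.0% and Gm5165 93.0% identical to BC002059. None of the 3 windows was CpG-rich, and each had its summit 67 to 99 bp upstream of the start.

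Near copies of this kind were searched for because reads from them can be hard to place, and how the reads were placed is not given in the sources used here. In 38 noncoding promoter regions (4.68%, 3.43 to 6.36%) the window had a match elsewhere in the genome of at least 90% identity over at least 50% of its length, against 2.58% of coding promoter regions, 3.28% of other regions and 3.07% of all regions. Among the 15 regions of highest signal 6 had such a copy, namely BC002059, Gm6712, Gm5165, E430024I08Rik, Gm10010 and Gm20939. In 17 regions the copy was another region of the set, as with Gm47469, which matched E430024I08Rik, Gm47467 and Gm46430 on chromosome 13, and with Gm20939, Gm32856 and Gm31793 on chromosomes 17, 8 and 10. Median signal was 11.4 in the 38 regions with a copy and 7.91 in the 774 without one. None of the windows matched the mitochondrial genome. The part of read placement in these signals was not tested.

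Of the other regions of highest signal, Gm13274 (chr4:88757568-88757852, signal 21.1) was 285 bp wide, with 24.7 in replicate 1 and 13.3 in replicate 2, and lay 2.4 kb from the coding gene Gm13283. Gm5444 had 18.3, 5730405O15Rik 17.8, E430024I08Rik 16.9, Gm10010 16.8, Gm20939 16.7, AA465934 16.1, Gm33195 15.96 and Gm44206 15.96. Gm44206 stood apart among them, with its summit 489 bp upstream of the start, in an intron of Efcab12, and 0 CpG dinucleotides within 50 bases of it. The remaining 3 of the first 15 are named RNAs described below, Firre, Mir670hg and Dancr. The widest regions were not the strongest: 5031425E22Rik (2084 bp) had a signal of 6.59, Gm6410 (1713 bp) 7.94, Gm26887 (1599 bp) 6.04, 4932412D23Rik (1590 bp) 9.04 and 2410080I02Rik (1483 bp) 4.56. All 5 of these windows were CpG-rich, and 2410080I02Rik was absent from replicate 2's IDR thresholded list.

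Hosts of small nucleolar RNAs were open almost without exception. These transcripts carry snoRNAs, guides for the chemical modification of ribosomal and other RNAs, in their introns. Of 17 listed hosts in the annotation, 16 (94.1%) had a region at a start, against 18.4% of all noncoding genes. Of the 17, 9 met the rule, and 7 (Gas5, Snhg1, Snhg3, Snhg9, Snhg10, Snhg18 and Zfas1) had their region within 1000 bp of a coding start. Dancr (chr5:74092563-74093579) had a signal of 15.2 in the main list, 15.8 in replicate 1 and 12.3 in replicate 2. Snhg6 had 14.6, 16.3 and 10.03 in the same order of lists, and Snhg15 13.1, 14.4 and 9.73. The 9 had a median signal of 9.99, against 7.96 over the 812. All 9 were found in both libraries, against 60.3% of the 812 and 86.0% of those with a signal above the median of all regions. Epb41l4aos (11.7), Snhg17 (9.99), Snhg5 (9.40), Snhg12 (9.10), Snhg20 (8.46) and Snhg8 (7.81) completed the group, and Snhg14, a host that in mouse is imprinted, had no region.

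**Figure D4:**
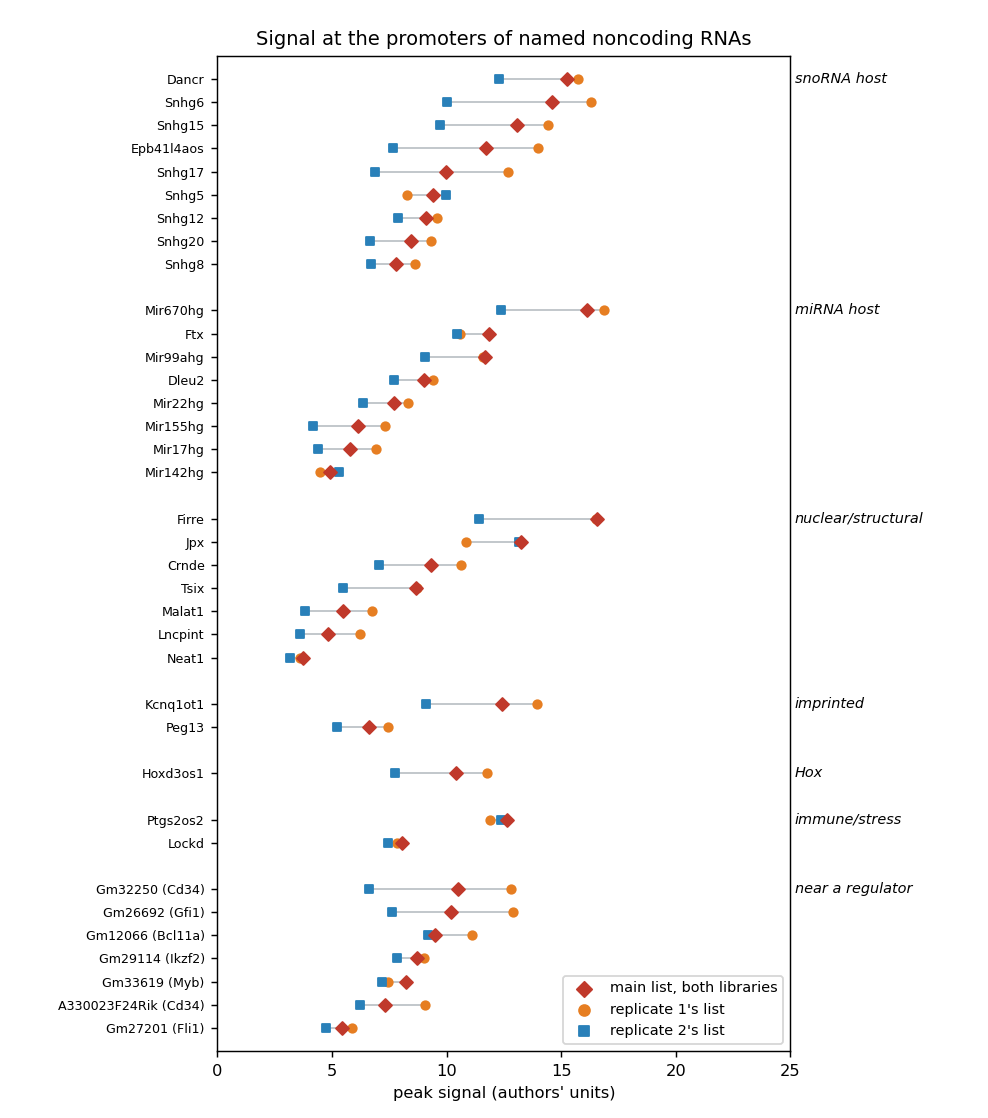
Peak signal (authors' units) at the promoters of the named noncoding RNAs in the set, by list, with the main list of both libraries (diamonds), replicate 1's list (circles) and replicate 2's list (squares); the last group has the nearest coding gene in parentheses. Dancr, Mir670hg and Firre reach 15.2, 16.1 and 16.5 in the main list, and Neat1 is lowest at 3.71.

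Transcripts that hold miRNAs were found by position, a search added after the values were seen, using the RefSeq hairpins of GRCm38.p6 on the strand of the noncoding gene. Of 72 noncoding genes that hold a hairpin, 21 (29.2%, 19.9 to 40.5%) had a region of the set, against 7.87% of all noncoding genes. As the nearest gene of a region, 20 such genes held 35 miRNA genes. The mature sequences of the miRNAs with a known part in blood cells, and of the 5′ forms that share a seed across host genes, are printed below from RefSeq, with the seed (bases 2 to 8) in capitals.
miR-223-3p (F630028O10Rik): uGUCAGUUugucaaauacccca
miR-142a-3p (Mir142hg): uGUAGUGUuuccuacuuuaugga
miR-155-5p (Mir155hg): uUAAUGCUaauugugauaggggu
miR-181a-5p (Gm4258): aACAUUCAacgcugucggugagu
miR-181b-5p (Gm4258): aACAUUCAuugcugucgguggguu
miR-17-5p (Mir17hg): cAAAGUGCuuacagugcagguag
miR-20a-5p (Mir17hg): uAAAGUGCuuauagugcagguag
miR-99a-5p (Mir99ahg): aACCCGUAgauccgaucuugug
miR-100-5p (3110039I08Rik): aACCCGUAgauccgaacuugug
miR-125b-5p (3110039I08Rik): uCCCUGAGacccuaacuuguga
let-7c-5p (Mir99ahg and Lncppara): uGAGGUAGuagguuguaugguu
let-7a-5p (6720427I07Rik): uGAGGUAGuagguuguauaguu
let-7d-5p (6720427I07Rik): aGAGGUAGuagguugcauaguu
let-7f-5p (6720427I07Rik): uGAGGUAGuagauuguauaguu
let-7b-5p (Lncppara): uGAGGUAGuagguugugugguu
miR-29c-3p (A330023F24Rik): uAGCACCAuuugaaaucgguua

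Several host genes with accessible promoters held miRNAs of 1 seed. By the mature forms listed, the let-7 seed GAGGUAG was shared by 5 miRNAs in 3 of the genes, 6720427I07Rik, Lncppara and Mir99ahg. The gene 3110039I08Rik also holds a let-7 hairpin, let-7a-2, of which the table lists the 3′ form, so it is not in that count. The seed ACCCGUA belonged to miR-99a-5p at Mir99ahg and miR-100-5p at 3110039I08Rik, a related pair of clusters on chromosomes 16 and 9. Mir99ahg had 3 regions, with signals of 11.7, 9.20 and 7.05, at different starts of the gene. 3110039I08Rik had 1 region (chr9:41474665-41475041) with 7.53 in the main list and 8.22 in replicate 1, and in replicate 2 it appeared only in the pseudoreplicated list, at 5.95.

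Hosts of miRNAs best known from blood cells had a wide range of signal. Gm4258, which holds miR-181a-1 and miR-181b-1 and lies 276.7 kb from its nearest coding start, that of Ptprc, had 11.6 in the main list, 10.3 in replicate 1 and 11.4 in replicate 2. F630028O10Rik, which holds miR-223, a miRNA of the myeloid lineage, had 8.25 in the main list, 7.65 in replicate 1 and 10.03 in replicate 2. Mir155hg, host of miR-155, had regions of 6.16 and 5.95. Mir17hg had 5.78 in the main list, 6.90 in replicate 1 and 4.39 in replicate 2, there only in the pseudoreplicated list. Mir142hg (chr11:87755281-87755839), host of a miRNA found throughout blood cells, had 4.90 in the main list, 4.47 in replicate 1 and 5.29 in replicate 2. The last 3 hosts lay below the lower quartile of the set, 6.40.

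Other listed miRNA hosts ran from 16.1 at Mir670hg, with 16.9 in replicate 1 and 12.4 in replicate 2, through Ftx (11.9 and 11.3 at 2 regions), the shared promoter of Dleu2 and Gm27017 (9.03) and Mir22hg (7.70 and 4.201). A second region at another start of Dleu2, host of miR-16-1, had 4.09. Of the 19 listed entries 9 had a region (47.4%, against 18.4% of all noncoding genes), but the list held Mirt1 and Mirt2, which are not miRNA hosts. Without that pair, a choice made after the data were seen, 8 of 17 hosts had a region (47.1%), with a median signal of 8.37. The 9 hosts without a main-list region were Dnm3os, H19, Meg3, Mir124-2hg, Mir124a-1hg, Mir133a-1hg, Mir9-3hg, Mirg and Rian, among them hosts of miRNAs known from brain and muscle. Of these, Mir124a-1hg had a weaker region in the pseudoreplicated lists of replicate 1 (3.84) and replicate 2 (2.72). Meg3 had one in replicate 1's (5.26), and the others had none in a list of either library. Mirt1 had a signal of 8.22, and Mirt2 had no region in the main list.

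Nuclear and structural RNAs ran from a signal of 3.71 at Neat1 to 16.5 at Firre. Of 12 in the annotation, 8 (66.7%) had a region at a start, against 18.4% of all noncoding genes, and 7 (58.3%) had one in the set, against 7.87%. Both libraries held 4 of the 7, a share near the 61.0% of all regions. Firre, an X-linked RNA that takes part in nuclear organisation, had 16.5 in the main list, 16.5 in replicate 1 and 11.4 in replicate 2. At Jpx, which activates Xist, the values were 13.2 in the main list, 10.9 in replicate 1 and 13.2 in replicate 2. Tsix, the antisense repressor of Xist, had 8.65 in the main list and 8.72 in replicate 1, and was in replicate 2's pseudoreplicated list only, at 5.47. Xist itself had no region in any list searched. Crnde had 9.31, at 1.4 kb from the start of Irx5.

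Malat1 and Neat1, which are abundant nuclear RNAs of speckles and paraspeckles, were at the low end of signal. Malat1 had regions of 5.47 and 5.21, the second with its summit 16 bp from a start, and the first was in replicate 1's IDR thresholded list at 6.73 and in replicate 2's pseudoreplicated list at 3.81. Neat1 (chr19:5844622-5846041) was 1420 bp wide, with 3.71 in the main list, 3.59 in replicate 1 and 3.18 in replicate 2, and was in both IDR thresholded lists. Its signal was close to the lowest of the set, 3.43 at Gm28151. Lncpint, a target of p53, had 4.84. Tug1 had its region at the start of Morc2a, and Miat, Pvt1, Rmst and Xist had none. Pvt1, next to Myc, did have a region in replicate 1's IDR thresholded list, at 7.64, and a weaker one in replicate 2's pseudoreplicated list, at 3.81.

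Most imprinted and Hox RNAs were without a region, as were most noncoding genes. Of 9 imprinted RNAs, 2 had one (22.2%, against 18.4% of all noncoding genes). Kcnq1ot1, which silences neighbouring genes on the paternal chromosome 7, had 12.4 in the main list, 13.9 in replicate 1 and 9.10 in replicate 2, and Peg13, inside an intron of Trappc9, had 6.59, 7.44 and 5.20 in the same order. The peak lists do not tell alleles apart. Airn, Nespas and Meg3 had no main-list region, though Airn was in replicate 1's IDR thresholded list at 4.85. Of 10 Hox cluster RNAs 1 was in the set, Hoxd3os1, 4.0 kb from the start of Hoxd3, with 10.4 in the main list, 11.8 in replicate 1 and 7.76 in replicate 2.

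Immune and stress RNAs had a region in 6 of 8 cases, against 18.4% of all noncoding genes, and 3 of the 8 (Mir142hg, Mir155hg and Lncpint) are described above. Ptgs2os2, which lies 64.8 kb from the start of the prostaglandin synthase gene Ptgs2, had 12.6 in the main list, 11.9 in replicate 1 and 12.4 in replicate 2. Lockd, downstream of the cell cycle inhibitor gene Cdkn1b, had 8.07, 7.84 and 7.45 in the same order. Ptgs2os had its region at the start of Ptgs2, and Bach2os and Trp53cor1 had none in the main list. By comparison, of 18 RNAs named for regulators of other tissues, such as Fendrr, Six3os1, Sox2ot and Hand2os1, none was in the set and 1, Foxd2os, had a region, at the start of Foxd2 (5.56% against 18.4% of all noncoding genes). Some of the other 17 had a weaker region in a library's pseudoreplicated list, as did Hand2os1, with 5.59 in replicate 1.

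In 7 regions the nearest coding gene was a listed regulator or marker of stem and progenitor cells. Gm32250 (chr1:194995105-194995620), 56.5 kb from the start of the surface marker gene Cd34, had 10.497 in the main list, 12.8 in replicate 1 and 6.62 in replicate 2, there only in the pseudoreplicated list. A330023F24Rik, which holds miR-29b-2 and miR-29c and lies 37.5 kb from the same start, had 7.32 in the main list, 9.07 in replicate 1 and 6.22 in replicate 2. Gm26692, 36.3 kb from the repressor gene Gfi1, had 10.2, 12.9 and 7.61 in the same order, and its window was CpG-rich with a GC content of 70.1%. The window of A330023F24Rik was CpG-rich too, and the other 5 were not.

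Gm12066, 119.9 kb from the globin repressor gene Bcl11a, had 9.503 in the main list, 11.1 in replicate 1 and 9.18 in replicate 2, with its summit 890 bp upstream of the noncoding start. Gm29114 lay 170.4 kb from Ikzf2 and had 8.69, 9.0 and 7.84 in the same order. At Gm33619, 25.9 kb from the progenitor regulator gene Myb, the values were 8.25 in the main list and 7.17 in replicate 2, and in replicate 1 it was in the pseudoreplicated list only, at 7.43. Gm27201, antisense within Fli1, had 5.43, 5.86 and 4.72, the lowest of the 7. The 7 main-list signals ran from 5.43 to 10.497, and the links to the coding genes are by position alone.

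Short motifs were searched within 100 bp of the summit on both strands, and a match is a description of letters, not of binding. The ETS motif CCGGAAGT and the PU.1 motif GAGGAAGT end in the same letters, so partly describe the same family. Motifs of blood cell factors had shares at noncoding promoters nearer to those of other regions than to those of coding promoters. GAGGAAGT was in 9.61% of noncoding promoter windows (7.77 to 11.8%), 3.28% of coding promoter windows, 10.4% of other windows and 7.85% of all windows. The AP-1 motif TGACTCA was in 7.76% (6.11 to 9.80%), against 2.65%, 8.09% and 6.14% in the same order of classes. For RUNX, TGTGGTT, the share was 9.36% (7.54 to 11.6%) at noncoding promoters, below the 14.004% of other regions and above the 3.26% of coding promoters, with 10.1% over all regions. The GATA factor motif AGATAAG was in 3.20% of noncoding promoter windows, 0.944% of coding promoter windows, 3.73% of other windows and 2.73% of all windows.

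For motifs common at coding promoters, the shares at noncoding promoters were lower than at coding ones. The SP/KLF motif GGGGCGGGG was in 4.68% of noncoding promoter windows (3.43 to 6.36%), 16.3% of coding promoter windows, 1.79% of other windows and 7.04% of all windows. CCGGAAGT was in 1.85% (1.12 to 3.03%), against 7.39%, 0.759% and 3.15% in the same order of classes. For the NFY motif CCAATNAG the shares were 5.79% at noncoding promoters, 10.2% at coding promoters, 2.45% in other regions and 5.28% over all regions, and for the NRF1 motif GCATGCGC 1.48%, 4.14%, 0.713% and 1.95%. YY1, AAGATGGC, was in 6 noncoding promoter windows (0.739%), 3.84% of coding promoter windows, 1.03% of other windows and 2.02% of all windows. The ZNF143 motif ACTACAATT was in 0 of 812 noncoding promoter windows (up to 0.471% by the Wilson interval) and 0.704% of coding promoter windows, 0.0616% of other windows and 0.289% of all windows.

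The CTCF shares of the classes lay close together. The CTCF core CNAGGNGGC was in 9.73% of noncoding promoter windows, 10.9% of coding promoter windows, 9.89% of other windows and 10.3% of all windows. The other motifs did not share 1 pattern: CAGCTG was in 17.2%, 11.3%, 18.02% and 15.6% in the same order, CACGTG in 5.67%, 8.44%, 4.75% and 6.09%, and TATAAA in 4.19%, 2.68%, 5.93% and 4.73%. TGACGTCA was in 1.60%, 3.42%, 0.641% and 1.66%, and TTGCGCAA in 1 noncoding promoter window (0.123%), 0.258%, 0.108% and 0.162%.

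**Figure D5:**
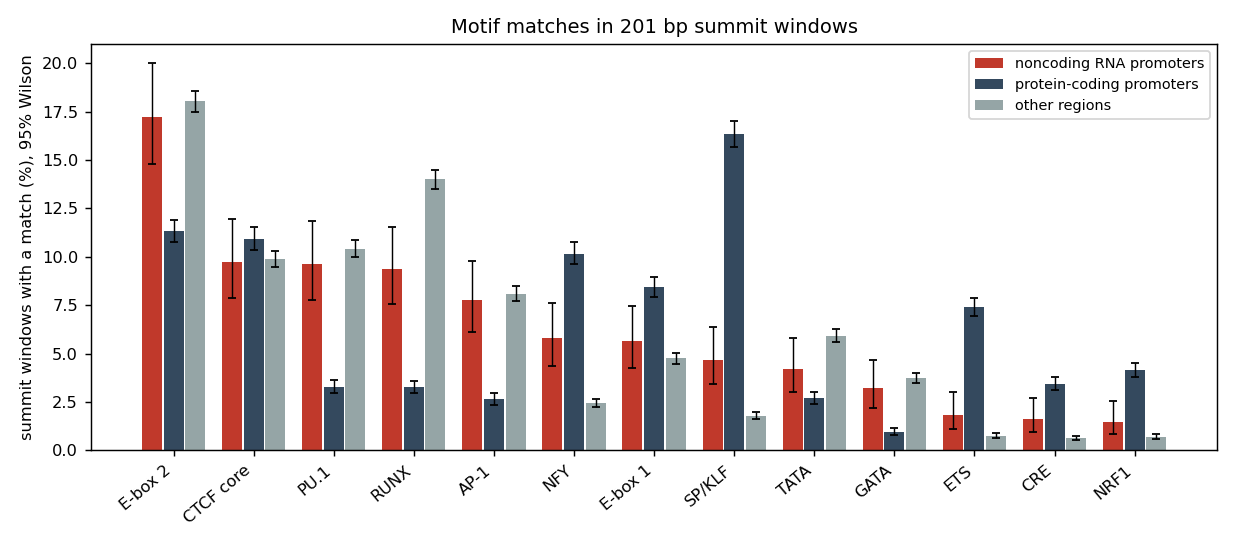
Share of summit windows (100 bp to either side) with at least 1 match on either strand (95% Wilson intervals) for noncoding RNA promoters, protein-coding promoters and other regions, for the motifs matched in at least 1% of noncoding promoter windows; E-box 1 and E-box 2 are the motifs CACGTG and CAGCTG. PU.1 and AP-1 shares at noncoding promoters lie near those of other regions, and ETS, NRF1 and SP/KLF shares lie between the other classes.

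Within the set, several motifs differed with CpG content, and RUNX and SP/KLF with distance from the start. GAGGAAGT was in 4.17% of CpG-rich windows and 11.6% of the others, TGACTCA in 1.85% and 9.90%, and GGGGCGGGG in 9.72% and 2.85%. TGTGGTT was in 5.97% of windows within 100 bp of the start (3.86 to 9.14%), 10.47% up to 500 bp and 13.1% beyond 500 bp (9.12 to 18.5%). GGGGCGGGG ran the other way, with 6.60%, 4.73% and 1.52% over the same distances. The PU.1 share was nearly level, at 9.43%, 9.46% and 10.1%, and those of AP-1 (5.66%, 9.46% and 8.59%), GATA (3.14%, 3.72% and 2.53%) and CTCF (9.75%, 8.78% and 11.1%) followed no order of distance.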

How the data were processed

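ATAC-seq peak lists of 2 libraries (biological replicates 1 and 2 of 1 group) on mm10 were used, per the labels. Each peak's signal is a value the authors deposited, with no control or scaling stated. The sources used here do not name the aligner, the peak caller or the handling of the insertion offset. Main-list signals came from both libraries together: 53170 of 53241 main peaks stand with the same signal in the pooled pseudoreplicated list. Whether the libraries came from separate animals is not stated, so their spread may be technical.

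The main list was the conservative one thresholded by IDR. Its overlapping peaks were joined, and the summit and signal are those of the peak of highest signal. A region counted as found in a library when it overlapped a region of that library's IDR thresholded list by 1 base or more, and it took the signal of the highest overlapping region, whose summit may lie elsewhere (as at 2410022M11Rik in replicate 2). Genes came from GENCODE M21 (GRCm38), with the starts of all transcripts of noncoding genes and of coding transcripts of coding genes. Sequence came from RefSeq GRCm38.p6. Copies were sought with blastn 2.17.0 (e-value 1e-10), and the rest was done in Python 3.11.15 with numpy 2.4.6, pandas 2.3.3 and scipy 1.17.1. The joining of peaks, the choice of summits, the classification, the overlaps and the motif search were tested on simulated data. Shares have 95% Wilson intervals; no test was made.

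The members, gene lists and motifs were chosen with earlier results of these data known. Named by rule were the 15 regions of highest signal, the 5 widest, all at listed genes, those nearest to listed regulators, the 5 of highest signal missing from 1 library and the 3 at each side of the limits; other names were chosen after their values were seen. Of the 7 lists, entries absent from the annotation as noncoding genes were left out. Alternatives were other lists, each library alone, other distances, start sites and gene types, single peaks, other overlaps and other CpG settings. Some results on listed genes are not reported here.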

Additional observations from a re-analysis of the deposited data

How the results depend on the processing

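The number of regions, 812, stayed within 1.5 times under the other IDR thresholded list, a 500 bp noncoding limit, 5 kb from coding starts, gene starts only and all transcripts of coding genes. It was 1817 in the replicated list, 2031 in the pseudoreplicated list, 365 above the median signal, 1276 with a 2500 bp limit, 482 for lincRNA genes alone and 1385 as single peaks; from 1 library alone it ran from 577 to 869. Shares found in replicate 1, replicate 2 and both were 76.0, 52.9 and 46.0% in the other IDR thresholded list, 45.5, 31.7 and 27.2% in the replicated list, 42.7, 28.4 and 24.3% in the pseudoreplicated list, and 97.3, 88.2 and 86.0% above the median signal. They were 82.4, 61.0 and 55.2% with 50% overlap and 99.9, 98.4 and 98.3% with each library's pseudoreplicated list added. A 2500 bp limit gave 81.8% for replicate 1 and 56.5% for both, and single peaks 87.9% for replicate 1. Median signal was 5.49 (replicated), 5.21 (pseudoreplicated), 10.2 (above the median) and 6.40 (single peaks), and 7.04 to 8.87 from 1 library. Median width was 557, 453 and 433 bp in the other IDR thresholded, replicated and pseudoreplicated lists, 674 bp above the median signal, 629 and 563 bp with limits of 500 and 2500 bp, 724 bp for single peaks and 516 to 550 bp from 1 library. CpG-rich windows were 21.2 and 19.7% in the replicated and pseudoreplicated lists, 32.3% above the median signal, 30.9 and 21.9% with limits of 500 and 2500 bp, 21.7% in windows reaching 250 bp to either side, 15.6% with a CpG ratio of at least 0.75, and 26.007 to 29.6% from 1 library. The replicated and pseudoreplicated lists hold more and weaker regions, and the cause of the other shifts was not tested. Leaving Mirt1 and Mirt2 out of the listed miRNA hosts gave 47.1% with a region, against 47.4% with them. Depth is unknown, so a region missing from a list is not shown to be closed. No paired analysis was possible because the series has 1 group.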

Other observations

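Coding genes named Zfp encode zinc finger proteins and lie in clusters with many near copies. They were the nearest coding gene of 28 noncoding promoter regions (3.45%, 2.40 to 4.94%). The share was 2.76% in coding promoter regions, 1.42% in other regions and 1.95% over all regions. The coding promoter share lay inside the interval of the set, so no excess over coding promoters was shown. The name was picked after the values were seen. Among the regions with a near copy elsewhere, BC002059, Gm5165, Gm13166, E430024I08Rik, Gm47469 and Gm47467 had such a neighbour.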
